A study of Mus musculus with 36 samples.

Results

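The regions described here are dense clusters of CTCF peaks in mouse embryonic stem cells on day 0. Peaks of the deposited day 0 CTCF list on chromosomes 1 to 19 were joined into a chain when the gap to the next was under 5000 bp, and chains of 4 or more peaks were kept. This gave 570 chains that hold 2576 of 46230 day 0 CTCF peaks, or 5.57%. They were thus chosen by the day 0 CTCF intervals alone, so the number, spacing and day 0 strength of their peaks are descriptions, and only the later CTCF lists and the MBD3 lists are independent of the choice.

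The series is a ChIP-seq study (chromatin immunoprecipitation followed by sequencing) with antibodies to CTCF and MBD3 and with input chromatin on days 0, 2, 4 and 6, in 12 groups of 3 samples each and 36 samples in all. All groups are mouse embryonic stem cells in serum replacement medium with LIF on irradiated embryonic fibroblasts, which can add feeder chromatin to a sample; the names of the deposited lists call the cells WT, and the labels do not say what was done to them between the days. The authors pooled the 3 replicates of an antibody and day before calling peaks, which leaves 1 list for each and no spread between replicates. Every share below is therefore a value without a p-value, with an exact (Clopper-Pearson) 95% interval that covers counting error only.

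CTCF is a zinc finger protein that binds a long DNA motif, blocks enhancers at insulators and halts cohesin at the ends of chromatin loops. Neighbouring CTCF sites are a known feature of domain borders and of gene clusters such as the protocadherins and Hox genes. MBD3 is a subunit of NuRD, a complex that joins nucleosome remodelling with histone deacetylation and is needed for embryonic stem cells to leave self-renewal.

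The sequences shown first are those under chained peaks that also carry letters of the CTCF core. They come from RefSeq start windows of GRCm38.p6, the assembly of mm10, which hold 250 bases before and 50 after a gene's start. Each is printed 5′ to 3′ on the gene's strand, only from bases before the start, and capitals mark the match to the core searched, CCA, any 2 bases, AG, any 2 bases and GGC, on both strands. The 5 were picked, after their values were seen, as examples with different gene roles and a match near the summit.
Palm (chr10:79793506-79793565, + strand): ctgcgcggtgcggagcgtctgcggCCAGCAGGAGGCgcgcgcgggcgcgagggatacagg
Rpl38 (chr11:114668434-114668493, + strand): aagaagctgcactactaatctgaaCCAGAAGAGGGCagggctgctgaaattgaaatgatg
Cebpb (chr2:167688665-167688704, + strand): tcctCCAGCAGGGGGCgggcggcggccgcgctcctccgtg
Snhg7 (chr2:26640302-26640361, - strand): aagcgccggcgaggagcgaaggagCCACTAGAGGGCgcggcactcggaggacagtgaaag
Krtcap2 (chr3:89246343-89246402, + strand): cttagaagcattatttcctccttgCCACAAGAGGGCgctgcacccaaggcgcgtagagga
In these 5 windows the centre of the match lay 12, 21, 2, 20 and 13 bp from the day 0 CTCF summit, in the order printed. All 5 peaks were listed again on days 2, 4 and 6. Palm encodes the membrane protein paralemmin, Rpl38 a ribosomal protein, Cebpb a leucine zipper transcription factor, Snhg7 a host transcript of small nucleolar RNAs and Krtcap2 a subunit of the oligosaccharyltransferase.

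The same letters were found in 2.47% of all 31396 start windows used. Start windows of chromosome 18, which holds the protocadherin chains, were not analysed here. Of 235 windows under a chained peak, 23 held them, or 9.79% (interval 6.31 to 14.3), against 7.37% (6.63 to 8.17) of 4518 windows under another day 0 CTCF peak and 1.58% of windows under none. Among the 235, the match was in 22 of 143 windows whose peak was also listed on day 6, or 15.4% (9.90 to 22.4), and in 1 of 92 whose peak was not, or 1.09% (0.0275 to 5.91). Outside chains the shares were 11.3% and 3.40%. Windows of 1 gene can share bases, so they are not independent, and a match is a description of the letters and not a binding site. Sequence of chained peaks away from gene starts was not analysed here.

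Most chains were short: 382 held 4 peaks, 129 held 5, 37 held 6, 12 held 7 and 10 held 8 or more, up to 14. A chain spanned a median of 8778.5 bp (2502 to 35297) with a median gap of 2005.5 bp. Chained peaks were spread over all 19 chromosomes, from 3.10% of the day 0 peaks of chromosome 14 to 7.38% of those of chromosome 4. At the limits of the rule, the widest gap inside a chain was 4999 bp and the narrowest gap that was not joined was 5000 bp. The 1359 runs of exactly 3 peaks, which just miss, had a median fold of 7.03 against 6.74 in chains of 4, and 71.5% of their peaks were listed on day 6 against 71.7%.

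Fold here is the authors' fold enrichment at a peak's summit, the fragments over the expected local background. Its median over a whole CTCF list was 6.67, 5.45, 8.57 and 8.92 on days 0, 2, 4 and 6. A lower fold on day 2 or a higher one on days 4 and 6 is thus a trait of the whole lists. Chained peaks had a median day 0 fold of 6.98 (quartiles 4.04 and 10.7) and the 43654 other peaks 6.65 (4.10 and 10.4). They were wider (median 342 against 312 bp) and stood on a higher expected background (median 11.6 against 8.48 fragments) with more fragments at the summit (median 78 against 58). A start window lay under 6.83% of chained and 7.70% of other peaks, counted over all peaks although those of chromosome 18 could match none.

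Fewer chained peaks were listed on day 2 than on the later days. On day 2, 1418 of 2576 chained peaks were overlapped by a CTCF peak, or 55.0% (53.1 to 57.0), where the share over all day 0 peaks was 56.2%. By day 4 it was 1789, or 69.4% (67.6 to 71.2), where all peaks gave 70.5%. The day 6 list overlapped 1881, or 73.0% (71.3 to 74.7), where all gave 72.1%. The chained share was thus near that of all peaks on each day. The day 2 list is also the shortest, with 27549 CTCF peaks against 46230, 35839 and 37078 on days 0, 4 and 6. The lowest background of the CTCF lists, the only measure of depth used here, was 2.87, 2.67, 1.83 and 1.87 fragments on days 0, 2, 4 and 6. Whether fewer bound cells, weaker binding or depth made the day 2 list short was not tested.

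Followed peak by peak, 1380 chained peaks (53.6%) were listed on all later days and 613 (23.8%) on none. Another 336 (13.0%) were missing on day 2 alone, 144 (5.59%) came back on day 6 only and 65 (2.52%) were listed on day 4 only. The reverse orders were rare: 9 peaks were listed on day 2 only, 8 on days 2 and 4 but not 6, and 21 on days 2 and 6 but not 4. New peaks inside a chain's span were also few, with 0, 6 and 10 on days 2, 4 and 6. The patterns of this paragraph were not counted outside chains, so they are not read as particular to chains. Outside chains 56.3%, 70.5% and 72.1% of peaks were listed on days 2, 4 and 6, near the chained shares.

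Few chains stayed whole. Every day 0 peak was listed in 47 (8.25%), 120 (21.1%) and 151 chains (26.5%) on days 2, 4 and 6, and in 43 on all these days. At least 4 peaks were listed in 112 chains (19.6%), 206 (36.1%) and 237 (41.6%) in the same order. No peak was listed in 22, 10 and 7 chains, and in 5 chains on any later day. Day 2 had fewer peaks than both later days in 253 chains, and 195 chains held the same number on all later days. From day 4 to day 6, 134 chains had more listed peaks, 54 had fewer and 382 the same number. The median number listed per chain was 2 on day 2 and 3 on each later day. A whole chain needs 4 or more peaks listed at once, where 56.2%, 70.5% and 72.1% of all day 0 peaks were listed on days 2, 4 and 6. Sets of as many peaks outside chains were not counted, so these counts are not a result about chains.

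**Figure D1:**
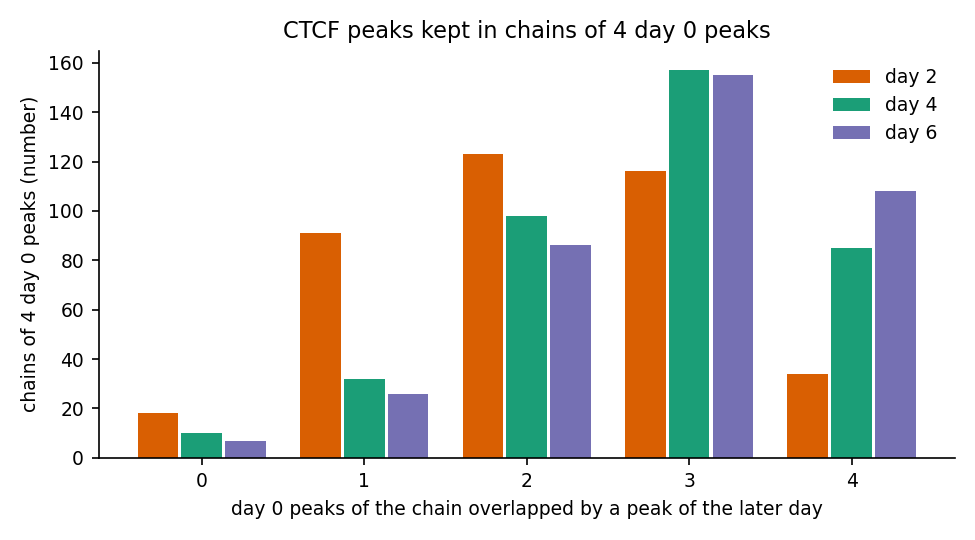
Number of the 382 chains of exactly 4 day 0 peaks (vertical axis) by how many of the 4 were overlapped by a CTCF peak of the later day (horizontal axis), with 1 bar colour for each day. On day 2 the most common outcome was 2 peaks (123 chains) and 34 chains had all 4, while on days 4 and 6 it was 3 peaks (157 and 155 chains), with all 4 in 85 and 108.

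The rule applied afresh to each list found 109, 206 and 248 chains on days 2, 4 and 6. They held 1.78%, 2.56% and 2.99% of the peaks of those lists, against 5.57% on day 0. Of the chains on those days, 74.3%, 90.3% and 85.9% lay over a day 0 chain, and 14.0%, 32.6% and 37.4% of the 570 day 0 chains were overlapped by one. The lists differ in length as given above, and the part of that in these counts was not tested.

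Which peak of a chain was listed later followed its day 0 strength. In the 382 chains of 4, peaks were ranked by day 0 fold, with medians of 12.5, 8.42, 5.43 and 3.19 from strongest to weakest. On day 6, 96.1% (93.6 to 97.8) of the strongest, 89.3% of the next, 64.9% of rank 3 and 36.4% (31.6 to 41.4) of the weakest were listed. On day 2 these shares were 89.3%, 70.7%, 39.8% and 15.2%. Most chains thus held their strongest peak on day 2 and not their weakest. Outside chains the share listed on day 6 also rose with day 0 fold, from 7.1% in the lowest decile to 99.9% in the highest. The order by strength is thus not particular to chains.

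**Figure D2:**
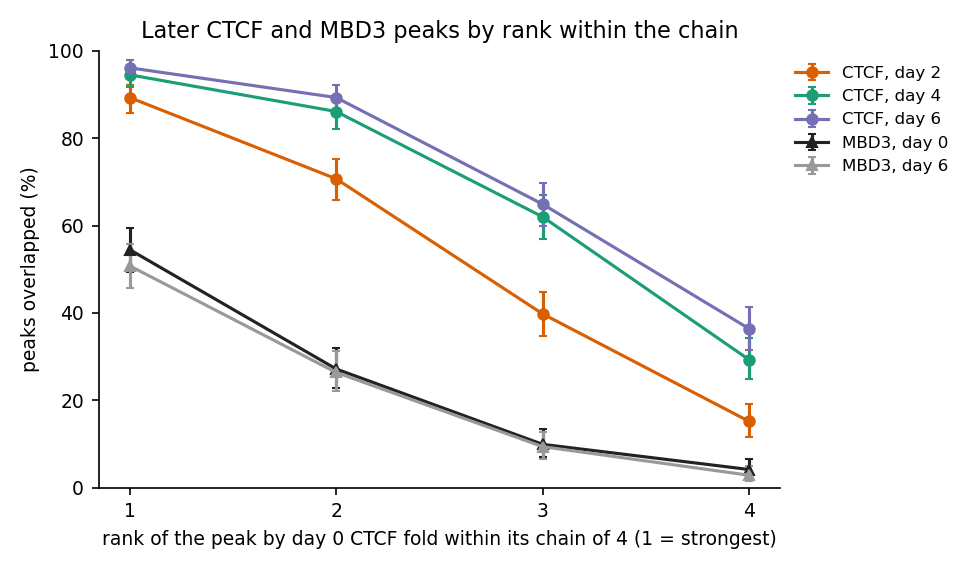
Share of peaks in the 382 chains of 4 that were overlapped by a CTCF peak (circles) or an MBD3 peak (triangles) of the day given, by rank of day 0 CTCF fold within the chain, with exact 95% intervals as bars. All the series fall from rank 1 to rank 4, for CTCF on day 6 from 96.1% to 36.4% and for MBD3 on day 0 from 54.5% to 4.19%.

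At like day 0 fold, chained peaks were listed somewhat less often than others on day 2. Over deciles of fold, the share of chained minus other peaks was -2.29 percentage points (-3.56 to -1.02), -1.20 (-2.41 to 0.02) and 0.94 (-0.26 to 2.13) on days 2, 4 and 6. The day 6 difference changed sign with other strata, to -3.41 (-4.62 to -2.20) within deciles of the authors' -log10 q and to -1.41 (-2.57 to -0.26) within deciles of fold and background together. The gap on day 2 was widest in the lower middle deciles, with 13.7% of chained and 21.3% of other peaks in decile 3 and 26.7% and 36.5% in decile 4. By day 6 these deciles gave 47.9% and 49.6%, and 65.5% and 68.1%. Decile 6 went the other way on day 6, with 95.9% and 91.8%, and in decile 10 the shares were 100.0% and 99.9%.

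MBD3 peaks lay on chained CTCF peaks more often than on the others. On day 0, 679 chained peaks carried one, or 26.4% (24.7 to 28.1), against 19.7% of all day 0 CTCF peaks and 19.3% (18.9 to 19.6) of those outside chains. On day 2 the share was 2.41% (1.85 to 3.07), with 2.06% over all. The day 4 share was 21.2% (19.7 to 22.9), with 16.7% over all. The day 6 share was 24.8% (23.1 to 26.5), with 21.2% over all. The day 2 MBD3 list holds 1917 peaks, against 10282, 8842 and 10674 on days 0, 4 and 6. With every list shortened to the length of the shortest of its antibody before chaining, the chained share with MBD3 was 14.0% on day 0 and 10.3% on day 6. The share of other peaks in those lists is not given here. On day 0 the chained share there was higher by 7.65 points (5.40 to 9.90) within deciles of day 0 fold.

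Within deciles of day 0 fold, the chained share with MBD3 was higher by 5.77 points (4.40 to 7.14) on day 0. For days 2, 4 and 6 the differences were 0.20 (-0.37 to 0.77), 3.71 (2.36 to 5.06) and 2.51 (1.14 to 3.88). In the decile of highest fold, 83.0% (78.1 to 87.2) of chained and 71.2% (69.8 to 72.5) of other peaks carried MBD3 on day 0. The day 0 difference was 1.04 points (-0.24 to 2.32) within deciles of -log10 q, which rises with the fragment count as well as the fold. It was 1.28 points (0.01 to 2.54) within deciles of fold and background together and 3.43 (2.13 to 4.73) within deciles of fold and 3 classes of width. The higher MBD3 share thus moved with the higher background and fragment count given above, and their part in it beyond these strata was not tested.

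**Figure D3:**
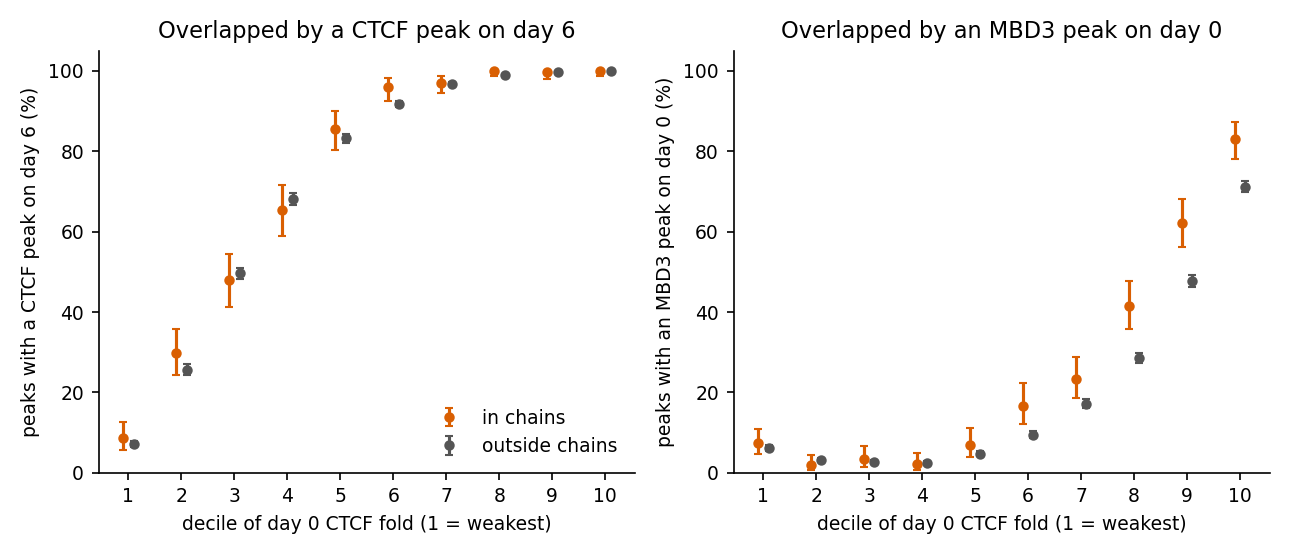
Share of day 0 CTCF peaks overlapped by a CTCF peak on day 6 (left) and by an MBD3 peak on day 0 (right), in each decile of day 0 CTCF fold, for peaks in chains and outside them, with exact 95% intervals. The 2 classes lie close together on the left, and on the right the chained peaks lie above the others from decile 6 on, with 83.0% against 71.2% in decile 10.

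By chain, 395 of 570 (69.3%) held at least 1 CTCF peak with MBD3 on day 0. This held for 55 (9.65%), 345 (60.5%) and 385 (67.5%) on days 2, 4 and 6. Of all single day 0 CTCF peaks, 19.7%, 2.06%, 16.7% and 21.2% carried MBD3 on days 0, 2, 4 and 6. At least 1 of 4 or more peaks is met more often than that, and sets of as many peaks outside chains were not counted. MBD3 was seldom at all peaks of a chain: 186 chains had it at 2 or more peaks on day 0 and 3 at every peak. It was at no peak on any day in 85 chains and at some peak on all 4 days in 54. In chains of 4, MBD3 on day 0 lay at 54.5% of the strongest peaks, 27.2% and 9.95% of ranks 2 and 3, and 4.19% of the weakest. Inner peaks carried it more often than the first and last of a chain, 29.2% against 22.8%, and their median CTCF fold was also higher, 7.23 against 6.60. The MBD3 peaks were weaker than the CTCF peaks, with a median MBD3 fold of 4.20 on day 0 in chains and 4.18 outside.

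Chained peaks lay in coding genes about as often as the others, 51.5% against 51.8%. Counted by chain, which spans more than a peak, a protein-coding gene overlapped 426 chains (74.7%), and 97 chains reached 2 or more genes. The other 144 lay a median of 9878.5 bp from the nearest coding gene. A start window lay under a peak in 152 chains (26.7%), with the same limit for chromosome 18. The 575 coding genes over a chain are 2.78% of 20665 in the table, with a median length of 20063 bp against 17417.5 bp for the rest. Chained peaks over a start window had a lower median fold than those away from one (4.39 against 7.09), and 58.5% (50.9 to 65.9) of them were listed on day 6 against 74.1% (72.3 to 75.8). Outside chains the same contrast was seen, with fold of 4.08 against 6.76 and 51.4% against 73.8% listed on day 6. In chains, MBD3 on day 0 lay at 31.8% (25 to 39.2) of the start-window peaks and 26.0% (24.2 to 27.8) of those away. Outside chains these shares were 27.9% and 18.5%.

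The clustered protocadherins, cell-surface proteins of neurons whose alternative promoters carry CTCF sites, had 37 of 58 genes over a chain, where 2.78% of all coding genes were. The genes of the alpha and gamma groups share long overlapping bodies on chromosome 18, so these 37 are 7 chains with 44 day 0 peaks and not independent genes. Of the 44, 27, 33 and 35 were listed on days 2, 4 and 6, and MBD3 lay at 6, 1, 4 and 6 of them on days 0, 2, 4 and 6. The chain from Pcdhb15 to Pcdhb20 (chr18:37473331-37506707) had 11 peaks of day 0 fold 3.27 to 13.7, of which 6, 9 and 10 were listed on days 2, 4 and 6. MBD3 lay at 2, 0, 1 and 2 of them on days 0, 2, 4 and 6, so most of its peaks were CTCF alone. Another of 9 peaks over the gamma group (chr18:37725589-37755868) had 7 listed on each later day, not the same 7 on day 2 as on days 4 and 6, and had MBD3 at 0 peaks on days 0, 2 and 4 and at 3 on day 6. At those 3, MBD3 fold on day 6 was 4.38, 5.79 and 5.19, over CTCF fold of 11.9, 17.2 and 19.

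Of the Hox genes, homeobox regulators of the body axis, 4 of 39 (10.3%) overlapped a chain, where 2.78% of all coding genes did. All 4 share 1 chain, the run from Hoxd11 to Hoxd8 (chr2:74686374-74705259). Its 6 peaks had day 0 fold of 6.44, 6.65, 7.87, 3.99, 8.87 and 2.08 in order of position. Peaks 2 and 3 were listed on day 2, at fold 3.72 and 3.78, and peaks 1, 2, 3 and 5 on days 4 and 6. The peak at the Hoxd9 start and the last, near the Hoxd8 start, were not listed on any later day, and no peak of the chain carried MBD3 on any day. Among 160 genes of other developmental transcription factor families, 5 overlapped chains: Sox12, Foxd2, Hes3, Irx5 and Tbx2. That share, 3.12%, was near the 2.78% of all coding genes. Their 28 peaks were listed 15, 18 and 19 times on days 2, 4 and 6.

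The Tbx2 chain, at a T-box gene (chr11:85837827-85851108), had 7 peaks. Of these, 4 of day 0 fold 11.1 to 16.4 were listed on every day and carried MBD3 on day 0 at fold 3.36 to 3.98. The other 3, at 2.77, 2.70 and 4.94, had no MBD3, and only the last was listed again, on days 4 and 6. At Irx5, an Iroquois homeobox gene, 2, 4 and 4 of 6 peaks were listed on days 2, 4 and 6, with MBD3 at none.

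Pou5f1, which encodes the pluripotency factor Oct4, was the 1 gene over a chain among 25 of its list (4.0%, against 2.78% of all coding genes). The chain also covers Tcf19 and Cchcr1 (chr17:35509381-35517243), and its strongest peak, 2739 bp inside Tcf19, had CTCF fold of 9.55, 6.84, 9.51 and 13.5 on days 0, 2, 4 and 6. The peak 671 bp after the Pou5f1 start had fold 2.3 on day 0, was not listed on day 2, and had 4.97 and 6.37 on days 4 and 6. It had 159 fragments over a background of 68.4 on day 0, against a median background of 11.6 in chains. MBD3 lay in this chain on day 6 only, at fold 5.04 on the Tcf19 peak.

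Of 14 genes of NuRD subunits, Mta1 and Cdk2ap1 overlapped a chain (14.3%), and of 9 DNA methylation enzymes Tet1, which oxidises methylcytosine (11.1%), where 2.78% of all coding genes did. Genes of these 2 lists are long, with medians of 31400 and 52700 bp against 17417.5 bp for coding genes not over a chain. The part of length in these shares was not tested. At Mta1 and Crip2, 2, 3 and 3 of 5 peaks were listed on days 2, 4 and 6, and the last, at day 0 fold 11.8, was listed on none. At Cdk2ap1 it was 2, 4 and 3 of 5, and at Tet1 the same 1 of 4, at fold 5.93, 5.34, 5.79 and 9.52 on days 0, 2, 4 and 6. MBD3 was at 1 peak each of the Mta1 and Cdk2ap1 chains on day 0 and at none in Tet1 on any day. Of 43 imprinted genes 1 overlapped a chain, Mest, where 1, 2 and 1 of 4 peaks were listed. The peak there listed on every day, 932 bp before a Mest start, had CTCF fold of 12.7, 5.92, 9.32 and 13.2, and MBD3 on day 6 only.

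Of 64 replication-dependent histone genes, which are small and packed, 4 lay under 1 chain of 7 peaks (chr13:21709970-21724977): H2bc13, H2ac13, H3c10 and H2bc14. These 4 are 6.25% of the list, against 2.78% of all coding genes. The same number of peaks, 4, was listed on days 2, 4 and 6. MBD3 at the peaks near H2ac13 and H2bc14 had fold 3.87 and 4.28 on day 0, then 3.42 and 3.86 by day 2. It had 2.74 and 3.44 on day 4 and was not listed at these peaks on day 6. Over the whole chain MBD3 lay at 2, 2, 4 and 1 peaks on days 0, 2, 4 and 6, the last at fold 4.33 on the peak 1250 bp after the H2bc13 start. It is thus a chain that kept MBD3 on day 2, as 55 of 570 did. These 2 peaks stood on backgrounds of 44.7 and 34.7 fragments, and near-identical histone genes share reads, so their values are uncertain.

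The chain at Rpl38, a ribosomal protein gene, had day 0 fold of 14.2, 13.9, 12.9 and 8.45, and 2, 4 and 4 peaks were listed on days 2, 4 and 6. Its peak over the start sequence printed above had CTCF fold of 12.9, 6.09, 14.3 and 17.7 on days 0, 2, 4 and 6, and MBD3 fold of 3.58, 4.59 and 5.51 on days 0, 4 and 6. Of 390 Zfp genes, which encode zinc finger proteins, 10 overlapped chains (2.56%, against 2.78% of all coding genes). No chain overlapped any of 1107 olfactory receptor, 671 antigen receptor, 12 globin, 44 major histocompatibility or 13 CTCF and cohesin genes. The median lengths of these genes were 949, 438, 1400, 4530 and 45400 bp in that order, so most of these lists hold short genes.

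The chains with the most peaks, 14 and 12, were tandem arrays. The first (chr4:88773625-88806350) covers 12 genes of the interferon zeta array, Ifnz and 11 predicted genes of the same family, which encode type I interferons. Its 11 peaks of fold 5 or more (6.58 to 27.8) were spaced by 2827 to 5850 bp, with a median of 2935. CTCF was listed at 11 of the 14 on day 2 and at 12 on days 4 and 6, and MBD3 at 11, 6, 11 and 10 on days 0, 2, 4 and 6. It is 1 of 3 chains with MBD3 at 2 or more peaks on day 2, with MBD3 fold of 1.69 to 2.66 there.

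Compared position by position without a shift, the 12 start windows fall into 4 types, each of at least 270 identical bases in 300. Windows of different types share far fewer (Ifnz and Gm13272 68 of 300). The nearest summit lay 93, 92 and -33 bp from the start at Gm13290, Gm13289 and Gm13279. It lay at -70 or -71 bp in the Gm13272 type and at 459 to 614 bp in the Ifnz type. Whether the types differ only by where the start is annotated in the repeat was not tested. Sequence of other copies outside their windows was not analysed here. Gm13275 is the only window of its type. Gm13272, Gm13285 and Gm13287 are 300 of 300 identical, as are Gm13290 and Gm13279, and Ifnz, Gm13276 and Gm13277. The stretch before the start, which is the same in Gm13272 (chr4:88779737-88779849), Gm13285 (chr4:88800207-88800319) and Gm13287 (chr4:88803141-88803253), all on the + strand, is shown for the letters it shares with the CTCF core on the opposite strand, in capitals.
Gm13272: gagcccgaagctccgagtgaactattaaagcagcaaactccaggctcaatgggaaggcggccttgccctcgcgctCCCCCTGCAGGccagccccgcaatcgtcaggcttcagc
These letters match CC, any 3 bases and AGGGGG on the reverse strand, a form that overlaps the first core and was chosen after the sequences were seen, and lay 37 or 38 bp from the summits. It was in 2.43% of all start windows, 14.9% (10.6 to 20.1) of those under a chained peak and 8.88% (8.06 to 9.74) of those under another CTCF peak. The windows of Gm13272, Gm13285 and Gm13287 are among those under a chained peak, so that share includes windows from which the form was chosen. The first core had no match in any of the 12 start windows of this array. Reads that fit several copies were placed by the authors' aligner, so the values of single copies are uncertain. The peaks at Gm13272, Gm13285 and Gm13287 had CTCF fold of 13.1, 14.9 and 15.3 on day 0. They had 6.67, 6.25 and 6.72 on day 2, the lowest of the days at each copy, as the median of the whole CTCF lists was lowest on day 2. The folds were 12.9, 13.3 and 12.2 on day 4, then 16.3, 15.2 and 17.0 on day 6. MBD3 fold there was 4.22, 4.51 and 4.87 on day 0. The expected background in this chain ran from 19.5 to 207 fragments, against a median of 11.6 in chains.

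The chain of 12 (chr6:47650803-47686099) lies over the array of 4.5S RNA, a small rodent RNA made from repeated units. Its 9 peaks of fold 5 or more (12.7 to 28.6) were spaced by 4188 to 4338 bp, with a median of 4322.5. All 9 were listed on days 2, 4 and 6, and the 3 weak peaks, at 2.33 or less, on none. MBD3 lay at 10, 0, 9 and 9 peaks on days 0, 2, 4 and 6. A second chain of 6 peaks nearby (chr6:47739693-47758194) had MBD3 at 5, 2, 5 and 5 peaks. Backgrounds in both were 53.1 to 153 fragments, and without the 3 array chains the shares over all chains moved by less than their intervals.

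**Figure D4:**
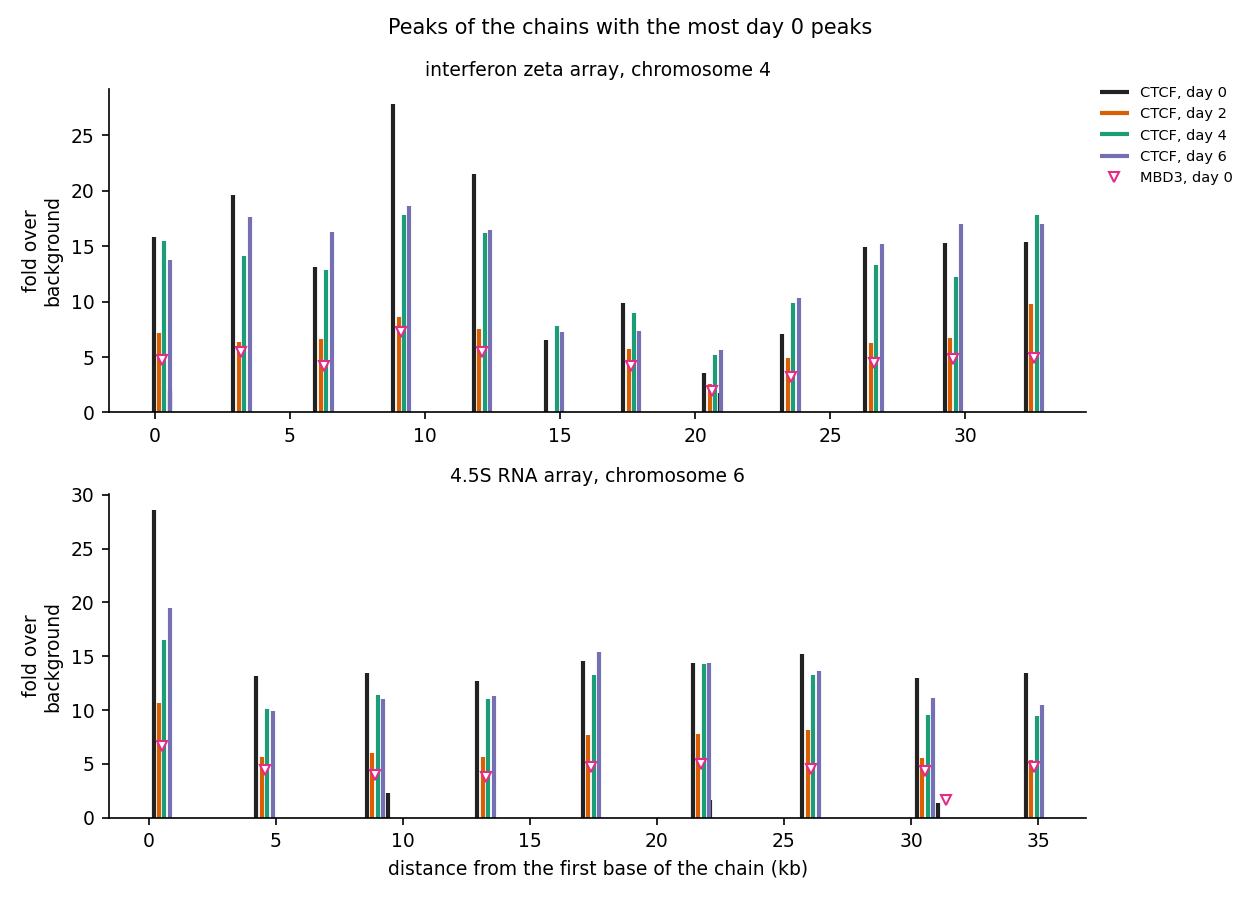
Fold over background (vertical axis) of CTCF peaks on days 0, 2, 4 and 6 (bars) and of MBD3 on day 0 (open triangles) at the peaks of the 2 tandem arrays, by distance from the chain's first base in kb. A missing bar is a day on which no peak was listed. Strong peaks recur at steps of 2827 to 5850 bp above and 4188 to 4338 bp below. Wherever a peak was listed on day 2 its CTCF fold was the lowest of the days. The median fold of the whole CTCF lists was also lowest on day 2 (5.45, against 6.67, 8.57 and 8.92 on days 0, 4 and 6).

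The chain of 10 at Smug1, a DNA glycosylase that removes uracil (chr15:103165428-103191417), is not an array. Its 10 peaks ranged in day 0 fold from 2.3 to 19.6, and 7, 8 and 9 were listed on days 2, 4 and 6. MBD3 lay at 5, 1, 6 and 6 peaks on days 0, 2, 4 and 6. The peak with MBD3 on all 4 days had MBD3 fold of 10.5, 4.42, 14.9 and 11.5, and CTCF fold of 19.6, 13.2, 24.5 and 21.2. It was also the strongest CTCF peak of the chain on every one of those days.

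The other 5 of the 10 largest chains, with 8 or 9 peaks, lay outside tandem arrays and the protocadherins. At Ptma, which encodes prothymosin alpha, 4, 6 and 7 of 8 peaks were listed on days 2, 4 and 6, with MBD3 at 2 on day 0 and 0 on day 2. The chain over Rnf126, Fstl3, Prss57 and Palm had 4, 7 and 5 of 8, and its peak at the Palm start printed above had CTCF fold of 22.6, 5.24, 13.2 and 12.7 on days 0, 2, 4 and 6. That was the highest of the chain on days 0, 4 and 6, and on day 2 it was below 6.44 and 5.74 at 2 other peaks. At Fbxo6, Fbxo44 and Fbxo2, which encode F-box subunits of ubiquitin ligases, 4, 6 and 7 of 8 were listed. Over 2900026A02Rik it was 5 of 9 on each later day. The last, 8 peaks 10761 bp from Meox1, a homeobox gene, had 5, 7 and 7. MBD3 on day 2 was at none of the peaks of these 5 chains.

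Chains with every peak listed on each later day were led by that at Fxyd2, a regulatory subunit of the sodium pump (chr9:45408255-45421712). Its 6 peaks had CTCF fold of 7.23 to 16.8 on day 0. On days 2, 4 and 6 the ranges were 3.77 to 7.85, 8.09 to 15.9 and 9.51 to 12.4. MBD3 lay at 5, 0, 3 and 4 of them. The chains of 5 at Gse1, at Ddost and Pink1 (a glycosylation enzyme subunit and a mitochondrial kinase), near Gjb5, a gap junction gene, and 60701 bp from Smad2 also kept all. In each of those 4 the CTCF peak with the highest MBD3 fold on day 0 was the strongest CTCF peak, and MBD3 fold there was 13.4, 16.2, 6.40 and 14.5. At Fxyd2 it was not. There MBD3 fold was highest, 6.05, at the peak of CTCF fold 15.6, and was 5.58 at the strongest, of CTCF fold 16.8.

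**Figure D5:**
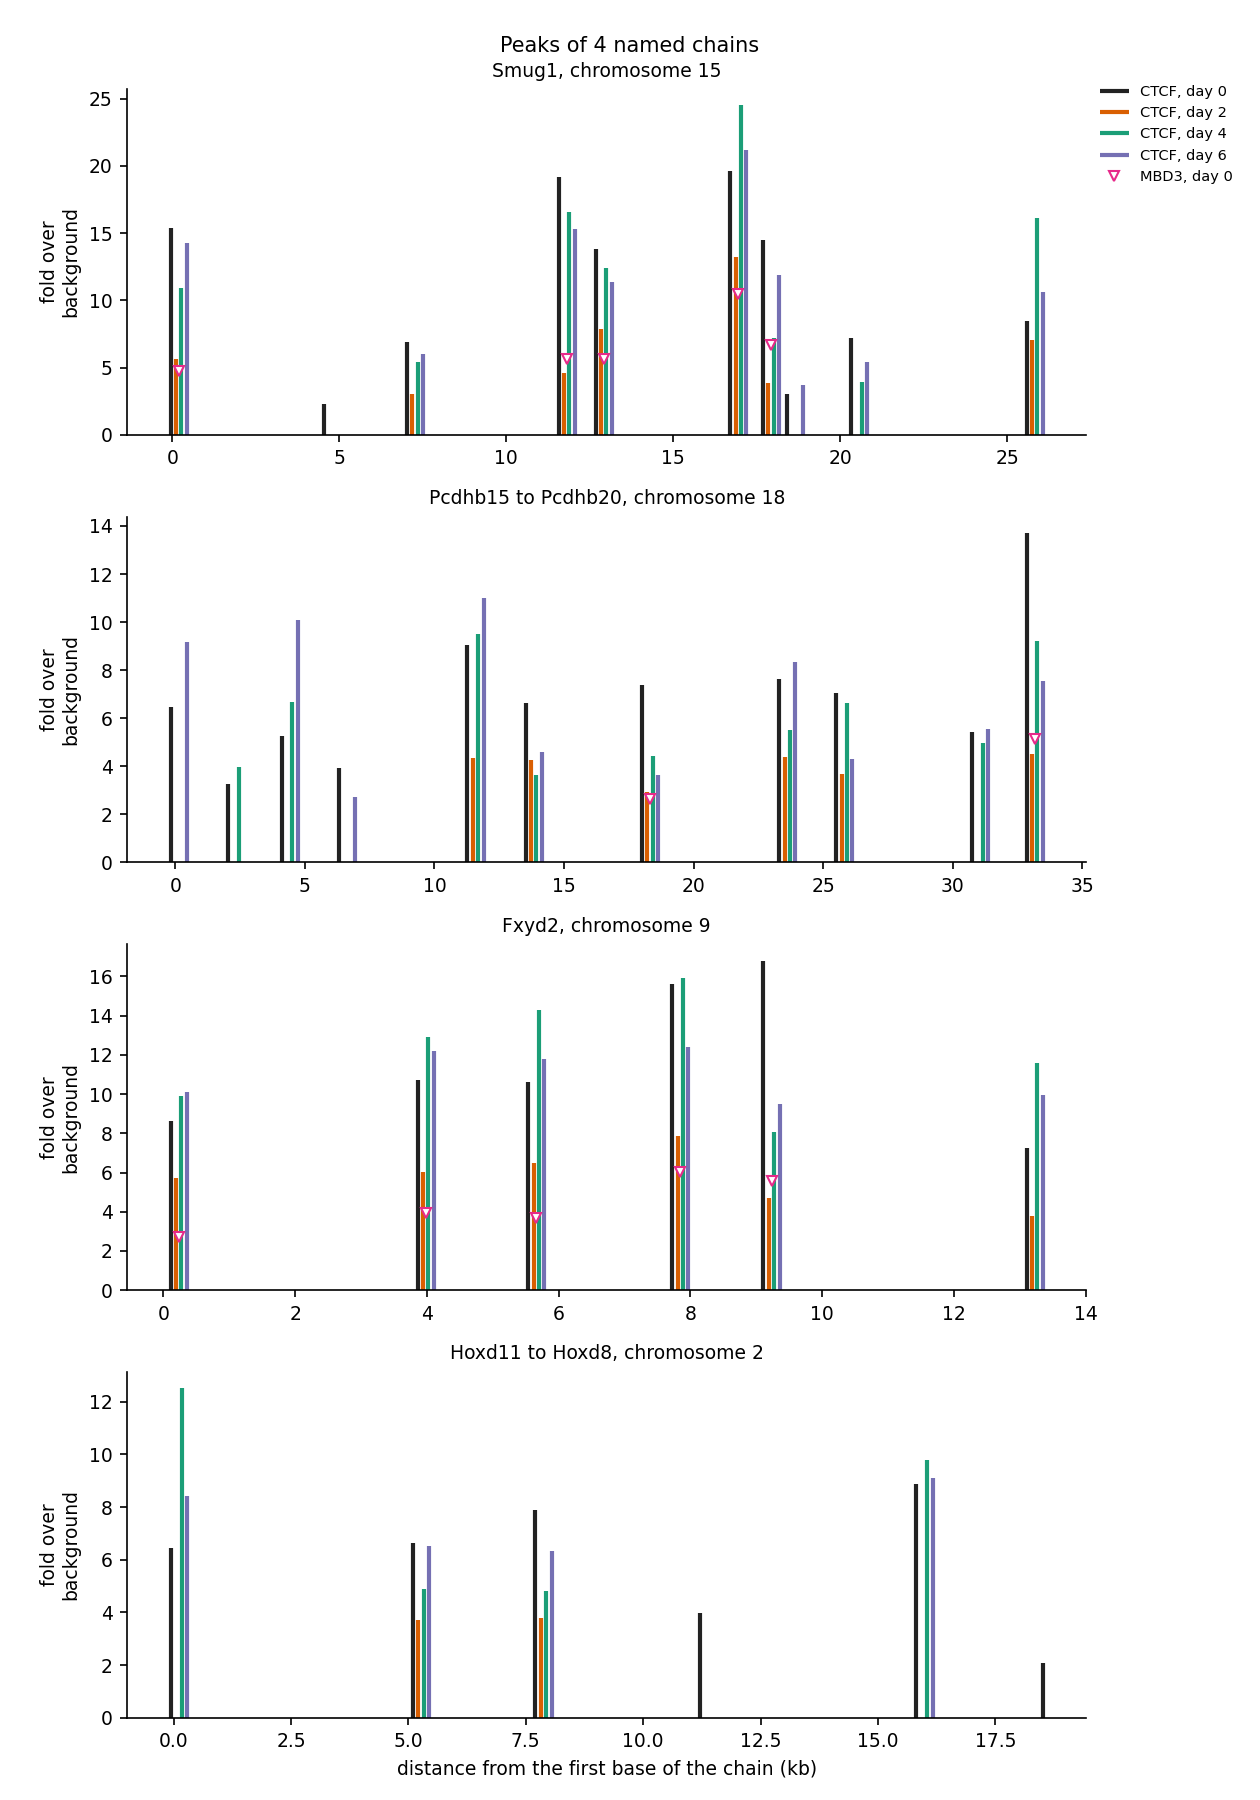
CTCF fold on days 0, 2, 4 and 6 (bars) and MBD3 fold on day 0 (open triangles) at each peak of 4 chains, by distance from the chain's first base in kb, with a missing bar where no peak was listed. At Fxyd2 all 6 peaks have 4 bars, at Smug1 7 of 10 do, at the Pcdhb genes 6 of 11 and at Hoxd 2 of 6, and Hoxd has no triangle.

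The 5 chains with no peak on a later day lay at C1ql2, a secreted synaptic protein, at Mlh3, a mismatch repair gene, at Tshz1 and Zadh2, at Ube4b, a ubiquitin chain factor, and at Ahnak2. Their median day 0 folds were 6.06, 2.87, 3.12, 3.91 and 1.77, against 6.98 for chained peaks. At C1ql2 the day 0 folds were 9.31, 5.88, 2.60 and 6.25, and at Mlh3 2.64, 3.10, 1.99 and 3.34. MBD3 was at none of the peaks of the first 4 of these chains on any day. At Ahnak2 (chr12:112780283-112784712) all 4 peaks carried MBD3 on day 0, at fold 1.97 to 2.64, over CTCF fold of 1.61 to 2.27, and none later. The chain held 3 MBD3 peaks in its span on day 0, fewer than its CTCF peaks. Its backgrounds were 36.5 to 49.3 fragments, so this is 1 of the 3 chains with MBD3 at every peak and also one where both proteins stood little above the control. By contrast, a chain of 6 on chromosome 12 (chr12:113215904-113224537), 26381 bp from Tmem121, had MBD3 at 5, 1, 4 and 4 peaks with CTCF listed at 5, 6 and 6.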

How the data were processed

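Groups, days and replicate numbers came from the labels, and 8 of the authors' peak lists (CTCF and MBD3 on 4 days) were used. The genome build was mm10 and the tools were MACS2 2.1.2, Bowtie2 2.3.4, bedtools 2.25.0, FastQC 0.11.7 and SAMtools 1.9, per the submitters' processing notes; parameters and filters are not given in the sources used here. The lists' names show that replicates 1 to 3 were pooled and called against a control. The authors deposited, for each peak, a fold enrichment at the summit (a ratio), its -log10 p and -log10 q, and an integer score; the lowest -log10 q is near 1.3, a q of 0.05. Library totals were not used here, so the only measure of depth is the lowest background of a list, 1.41 to 2.87 fragments.

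Rows of 1 interval with several summits were counted as 1 peak. Peaks overlapped when they shared 1 bp. The fragments at a summit and its expected background were recovered from fold and -log10 p, approximately for strong peaks. Gene bodies were those of RefSeq on GRCm38.p6, and a chain was given to each coding gene whose body it overlapped, with exons and introns not told apart. Start windows covered 16457 of 20665 coding genes. Differences within deciles weight each decile by its peaks, with normal 95% intervals of counting error. The 38 chains that could be named are the 10 with the most peaks, the 5 with the most day 0 MBD3, up to 5 with every or no peak kept, and up to 3 for each gene list; the start sequences and the second 4.5S RNA chain, and Sox12 as a name, stand outside this rule and were chosen after their values were seen. A result of 1 gene list is not reported here. The members and gene lists were chosen with earlier results of these data known. Overlap and chaining code was checked against bedtools on simulated peaks. Calculations were run in Python 3.11.15 (scipy 1.17.1, pandas 2.3.3, numpy 2.4.6), with figures by matplotlib 3.10.9.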

Additional observations from a re-analysis of the deposited data

How the results depend on the processing

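No paired analysis was possible because the replicates are pooled in each list, and for the same reason none could be left out. The number of chains was 150 with gaps under 2500 bp, 1584 under 10000 bp, 1929 from 3 peaks on, 274 with a -log10 q of 10 or more and 155 with lists of equal length. Of chained peaks, 53.0% were kept on day 2 with gaps under 2500 bp. With a -log10 q of 10 or more in every list, 62.7%, 77.6% and 80.0% were kept on days 2, 4 and 6, and 18.1% and 20.0% had MBD3 on days 0 and 6. With lists of equal length these were 80.1%, 84.1% and 85.3%, and 14.0% and 10.3%. With peaks whose background passed 10 times that list's lowest level removed everywhere, they were 49.6%, 67.2% and 68.8%, and 23.6% and 20.2%. The cause of these shifts was not tested. The limit on -log10 q, the equal lengths and the removal of high background left 34721, 27549 and 44931 day 0 peaks. Gaps under 2500 bp left all 46230. Only chained peaks are counted in these shares, and differences from other peaks at like fold are treated in the next paragraph.

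The difference in share kept on day 6 within deciles of fold, 0.94 points, turned to -0.13 from 3 peaks on, -0.99 with a -log10 q of 10 or more, and, with strata added after seeing the data, -3.41 (deciles of -log10 q) and -1.41 (fold with background). The day 0 MBD3 difference, 5.77 points, was 7.69 with a -log10 q of 10 or more and 7.65 with lists of equal length, and, with added strata, 3.43 (fold with width), 1.04 (-log10 q) and 1.28 (fold with background). Of the MBD3 intervals, that within deciles of -log10 q included 0, as did those of the day 6 values 0.94, -0.13 and -0.99. The other 44 values over the 8 results stayed within the counting interval of the main value or, for the number of chains, within 1.5 times it. They include those with 50% overlap, with chromosomes X and Y, and without the array chains.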
